A study of Mus musculus with 10 samples.

Results

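The comparison described here is the effect of a high folic acid diet on the mammary gland in the 7 of 10 deposited libraries that hold next to no lymph node RNA. These libraries were selected on a measured value, the level of *Ighd*, the heavy chain gene of the IgD receptor of naive B cells. A library was retained when *Ighd* was below 50 CPM, the number of reads on the gene scaled to a common total of reads on all genes. The 7 retained libraries come from 3 mice on the control diet, of 5 with a deposited library (CFA, titled T1224, T1314 and T1324). They also come from 4 mice on the high diet, of 5 with a deposited library (HFA, titled T2214, T2224, T2234 and T2314). All were female virgin C57BL/6 mice that ate AIN93M-based feed with 1 mg folic acid/kg (CFA) or 5 mg/kg (HFA) for a period as adults, then the same maintenance feed without treatment, and were killed at postnatal day 130, so every library reports a state after the treatment had ended. The samples were whole thoracic fat pads, 1 library per mouse according to the methods of the study. The p-values measure the spread between these mice and take them as independent. Cage, a term in the model of the study, is not in the labels, so the part of shared cages was not tested. Because the tissue is bulk, fewer cells of a type and less RNA per cell cannot be told apart in any value given here.

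The mammary gland of an adult virgin mouse is a tree of luminal and basal epithelial cells set in fat, with connective tissue, vessels, nerves and, in the fat pad, lymph nodes, and the thoracic pads lie on skeletal muscle. Folate carries the one-carbon units that cells use to make thymidylate and purines for DNA and to regenerate methionine, the source of methyl groups for DNA and histone methylation. Epithelial and stromal cells of the gland divide in waves that follow the oestrous cycle, and dividing cells switch on a shared programme of replication genes in S phase and of mitotic genes in G2 and M phase.

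*Ighd* lay at 1.77, 1.28 and 1.12 CPM in the CFA libraries and at 1.36, 1.56, 1.43 and 0.751 CPM in the HFA libraries that were retained. The nearest library outside the threshold, the CFA library T1234, had 124 CPM, followed by the CFA library T1334 with 283 CPM and the HFA library T2334 with 981 CPM. No library lay between 1.77 and 124 CPM, so a threshold of 10 CPM retained the same 7. These values chose the libraries and are given without a test. The retained libraries were low in lymphoid RNA but not free of it. The summed level of 12 B cell markers was 39.4 to 98.8 CPM in them against 746 to 5560 CPM in the other libraries, and that of 15 T cell markers was 13.3 to 34.9 against 338 to 1910 CPM. Of 10 markers of lymph node stroma, whose sum was 2.03 to 14.1 CPM in the retained libraries, the chemokine gene *Ccl21a* had no count in any of the 7. B cell sums overlapped between the diets, whereas T cell sums were 22.3 to 34.9 CPM in CFA and 13.3 to 21.6 CPM in HFA without overlap. Sums of 13 plasma cell markers overlapped, at 317 to 354 against 229 to 334 CPM, with 7 of the 8 tested lower in HFA. T cell and plasma cell lists had median log2 fold changes of -0.72 and -1.02, and the part of these differences in the results was not tested.

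Between 7672199 and 14829291 reads per retained library were counted on genes, with a median of 14241698 in CFA and 10871480 in HFA. The TMM scaling factors were 1.01 to 1.17 in CFA and 0.867 to 0.986 in HFA. Levels below are TMM-normalised CPM, listed for each gene in the order of the library titles above. Fold changes are HFA over CFA, and adjusted p-values come from the quasi-likelihood test of edgeR with Benjamini-Hochberg adjustment over all 15759 genes tested.

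Across the 15759 genes, 469 (2.98%) passed an adjusted p of 0.05, of which 185 (1.17%) rose and 284 (1.8%) fell in HFA. The largest coherent group among the named lists was of cell division genes, which fell, and skeletal muscle markers, a few nerve sheath genes and globins were among those that rose. All 469 genes had values that did not overlap between the diets. All 469 kept their direction and an unadjusted p below 0.05 when any one library was left out. These genes were picked by their p in the same libraries, so both counts follow largely from that choice and give no support. Over all 15759 genes tested, 11189 kept their direction and 1689 an unadjusted p below 0.05 in every such fit. The adjusted p-values sat just inside the threshold, since 465 of the 469 lay between 0.04 and 0.05. Leaving out T1314 or T2214 left no gene past it (2188 and 3192 had an unadjusted p below 0.05 in that fit), against 1 without T1224, 2 without T2224, 6 without T2314, 7 without T2234 and 1236 without T1324. An unadjusted p below 0.05 was reached by 1868 genes (11.9%) that were higher and 1819 (11.5%) that were lower in HFA. Values did not overlap between the diets for 1541 genes (9.78%) that were higher and 1707 (10.8%) that were lower. The median log2 fold change over all genes tested was 0.01.

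**Figure D1:**
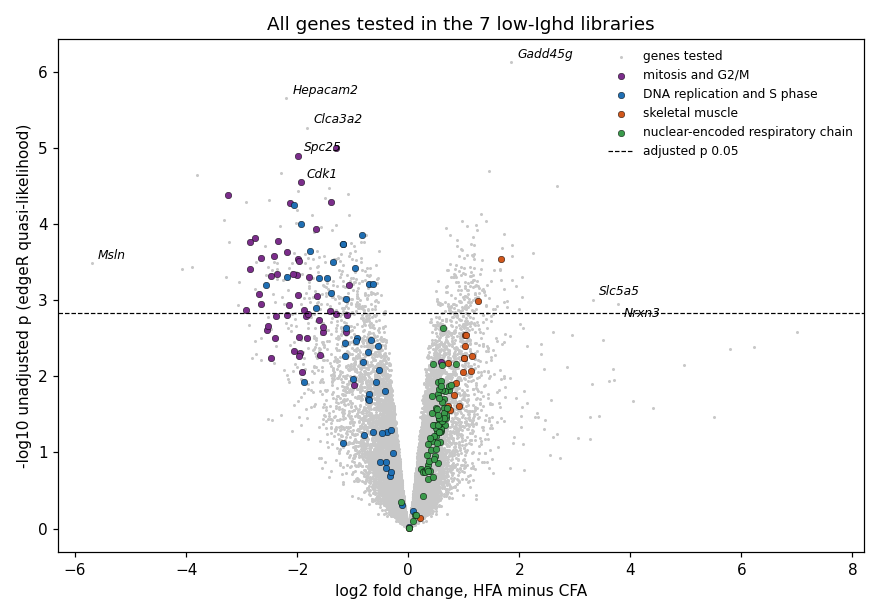
Log2 fold change of HFA over CFA (x axis) against the -log10 unadjusted p of the edgeR quasi-likelihood test (y axis) for the 15759 genes tested in the 7 low-*Ighd* libraries, with 4 gene lists coloured. Of the 54 mitotic genes 53 lie left of 0, whereas all 18 tested muscle markers and 74 of the 75 respiratory chain genes lie right of it, and the dashed line marks the adjusted threshold.

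Skeletal muscle RNA moved with the diet in the retained libraries and stands beside every result that follows. The summed level of the 19 muscle markers was 27200, 32100 and 51000 CPM in the CFA libraries and 70900, 76900, 65700 and 82700 CPM in the HFA libraries. The lowest HFA library thus lay above the highest CFA library, and muscle level and diet cannot be told apart in these 7 libraries. With the mean muscle marker level as a covariate in the quasi-likelihood fit no gene passed the adjusted threshold. An unadjusted p below 0.05 was left for 113 of 15759 genes and for 33 of the 469 genes. Standard errors were larger in that fit, for example 0.51 against 0.23 for *Spc25* and 0.37 against 0.15 for *Gadd45g*. A gene that loses its small p in it therefore cannot be read as showing no difference.

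Genes of mitosis formed the clearest group. Of the 54 mitotic genes tested, 30 fell and none rose past the adjusted threshold (55.6%, against 2.98% of all genes). In HFA 53 had a lower level, and the median log2 fold change was -1.98. Values of 51 of them were lower in every HFA library than in every CFA library, against 10.8% of all genes tested. Without any one library 52 kept an unadjusted p below 0.05, against 1689 of all 15759 genes tested. The exception in direction was *Pttg1*, the gene of the securin that holds back sister chromatid separation, whose log2 fold change was 0.59 with an adjusted p of 0.0841. Summed over the list, the level was 567, 807 and 401 CPM in CFA and 173, 206, 225 and 131 CPM in HFA. T1314 was the highest of the CFA libraries and T1324 the lowest, and T2314 was the lowest of the HFA libraries.

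*Cdk1* (chr10:69335146-69352938), which encodes the kinase that starts mitosis, was at 13.9, 16.1 and 8.80 CPM in CFA and at 3.21, 3.24, 4.29 and 2.86 CPM in HFA. The lowest CFA value was above all HFA values, and the mean was 12.9 ± 3.73 CPM (SD, n = 3) in CFA against 3.40 ± 0.615 CPM (SD, n = 4) in HFA. The log2 fold change of -1.94 ± 0.25 (SE) passed the edgeR test with an adjusted p of 0.0422. *Spc25* (chr2:69193895-69206194), a kinetochore subunit of the complex that binds spindle microtubules, was at 5.03, 6.59 and 5.87 CPM against 1.71, 1.5, 1.24 and 1.39 CPM. The spread within each diet was small beside the gap, and the log2 fold change was -1.98 ± 0.23 (adjusted p = 0.04). *Anln*, the gene of the contractile ring protein anillin, was at 18.3, 23.5 and 17.9 CPM in CFA and at 7.93, 7.90, 7.88 and 8.49 CPM in HFA, a 2.47-fold lower mean level (adjusted p = 0.0394).

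The proliferation marker *Mki67* was at 67.8, 108 and 38.8 CPM in CFA and at 10.5, 14.5, 16.7 and 3.99 CPM in HFA. CFA libraries differed among themselves nearly as the list sum did, with T1314 highest and T1324 lowest, and no HFA value reached them (log2 fold change -2.66 ± 0.46, adjusted p = 0.0428). *Top2a*, the topoisomerase that untangles replicated chromosomes, followed the same order of libraries, with 42.2, 71.3 and 41.1 CPM against 6.96, 12.1, 15.8 and 2.86 CPM. *Melk*, a kinase gene expressed in cycling progenitors, was at 7.02, 10 and 4.12 CPM against 0.429, 0.915, 1.24 and 0.433 CPM, with a log2 fold change of -3.25 ± 0.44 (adjusted p = 0.0422), the lowest in the list. The cyclin B2 gene *Ccnb2* and the polo kinase gene *Plk1*, which both drive entry into mitosis, had means 4.57-fold and 5.10-fold lower in HFA (adjusted p = 0.0428 for each). The checkpoint gene *Mad2l1* fell by 1.39 and the spindle gene *Nusap1* by 2.13 on the log2 scale (adjusted p = 0.0422 for each).

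The size of the fall varied along the list. *Cenpa*, the centromeric histone gene, showed the smallest fall among those that passed, from 9.98 ± 2.31 to 4.74 ± 0.477 CPM. *Ccnb1*, the gene of cyclin B1, missed the threshold in spite of a log2 fold change of -2.48 ± 0.68 (adjusted p = 0.0797), since its CFA values ranged from 1.12 to 5.46 CPM. The phosphatase gene *Cdc25c* and the division genes *Dlgap5* and *Pbk* also fell, with log2 fold changes of -2.92, -2.85 and -2.85, but HFA levels at or below 2.07 CPM rest on few reads. Outside the list, the division gene *Depdc1a*, the kinetochore checkpoint gene *Kntc1* and *Neil3*, a DNA glycosylase gene of replicating cells, fell by 3.29, 3.23 and 3.06 on the log2 scale (adjusted p = 0.0428 for each).

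Mitotic genes share promoter elements, of which the CCAAT box, bound by NF-Y, and the cell cycle genes homology region with the core TTTGAA, bound by the DREAM and MuvB complexes, are the best known. RefSeq promoter windows (GRCm38.p6, from 250 bases before to 50 after each start) were matched for 44 of the 54 mitotic genes and searched on both strands. CCAAT was found in the windows of 75% of them against 41.1% of all 27025 genes with a window, and TTTGAA in 72.7% against 20.2%. Both were found in 63.6% against 7.97%. Neither motif contains the other, and a match is a description of the letters only. Windows were matched for 39 of the 50 S phase genes, under 80%, and the same search on that list is not reported here. The 200 bases before the start are shown for the first 3 genes, in order of p, that hold both elements there, 5′ to 3′ along the gene, with CCAAT and TTTGAA on either strand in capitals.
Cdk1 (chr10:69352913-69353112, minus strand): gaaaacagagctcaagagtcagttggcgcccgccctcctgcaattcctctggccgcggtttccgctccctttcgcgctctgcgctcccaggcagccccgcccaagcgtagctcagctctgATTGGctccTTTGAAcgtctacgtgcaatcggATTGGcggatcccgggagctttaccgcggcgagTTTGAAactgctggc
Ccnb2 (chr9:70421555-70421754, minus strand): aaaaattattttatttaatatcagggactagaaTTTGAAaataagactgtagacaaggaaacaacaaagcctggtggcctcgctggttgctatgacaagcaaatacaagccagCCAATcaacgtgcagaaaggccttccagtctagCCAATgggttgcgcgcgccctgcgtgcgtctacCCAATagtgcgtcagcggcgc
Mki67 (chr7:135716380-135716579, minus strand): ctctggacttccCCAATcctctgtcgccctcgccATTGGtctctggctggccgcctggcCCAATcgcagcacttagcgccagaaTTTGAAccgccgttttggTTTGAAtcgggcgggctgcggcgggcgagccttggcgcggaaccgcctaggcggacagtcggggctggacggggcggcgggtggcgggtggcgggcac
In *Cdk1* the elements begin at -80 and -48 (CCAAT, reversed) and at -71 and -15 (TTTGAA) from the start, and in *Ccnb2* 3 CCAAT boxes begin at -87, -54 and -21.

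DNA replication genes fell less steeply than mitotic genes. Of 49 S phase genes tested, 17 fell and none rose past the adjusted threshold (34.7%, against 2.98% of all genes). In HFA 47 had a lower level, and the median log2 fold change was -0.80. The summed level was 602, 744 and 596 CPM in CFA and 378, 379, 429 and 382 CPM in HFA, and the 4 HFA sums were closer to each other than the 3 CFA sums. *Rrm2*, a subunit of the ribonucleotide reductase that makes deoxynucleotides, was at 7.02, 11 and 11.3 CPM against 1.71, 2.66, 3.32 and 1.82 CPM (log2 fold change -2.05 ± 0.29, adjusted p = 0.0425). *Mcm6*, part of the replicative helicase, was at 50, 58.7 and 54.1 CPM against 22.3, 19.6, 34.2 and 20.2 CPM. All CFA values stood above the highest HFA value, in T2234, and the mean level was 2.27-fold lower in HFA (adjusted p = 0.0428). *Mcm2*, *Mcm3*, *Mcm4*, *Mcm5* and *Mcm10* passed in the same direction, as did the sliding clamp gene *Pcna* and the clamp loader gene *Rfc5*, which was at 9.07, 10.2 and 10.1 CPM against 4.50, 4.57, 4.98 and 3.21 CPM. Among repair genes of S phase, *Brca1* was at 7.43 ± 1.87 CPM in CFA and 1.92 ± 0.618 CPM in HFA (adjusted p = 0.0428). *Pold1*, a catalytic subunit of DNA polymerase delta, fell by 0.84 ± 0.13 on the log2 scale (adjusted p = 0.0428). *Pclaf*, a clamp-associated factor gene, fell by 2.84 (adjusted p = 0.0428).

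With the muscle covariate the medians of both lists stayed below 0, at -0.75 for mitosis and -0.52 for S phase. *Spc25*, *Anln*, *Rrm2*, *Mcm6*, *Mcm10* and *Rfc5* kept an unadjusted p below 0.05 with that covariate (0.00792, 0.0182, 0.00347, 0.0361, 0.0463 and 0.0337), whereas *Cdk1* and *Mki67* did not (0.0888 and 0.319).

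**Figure D2:**
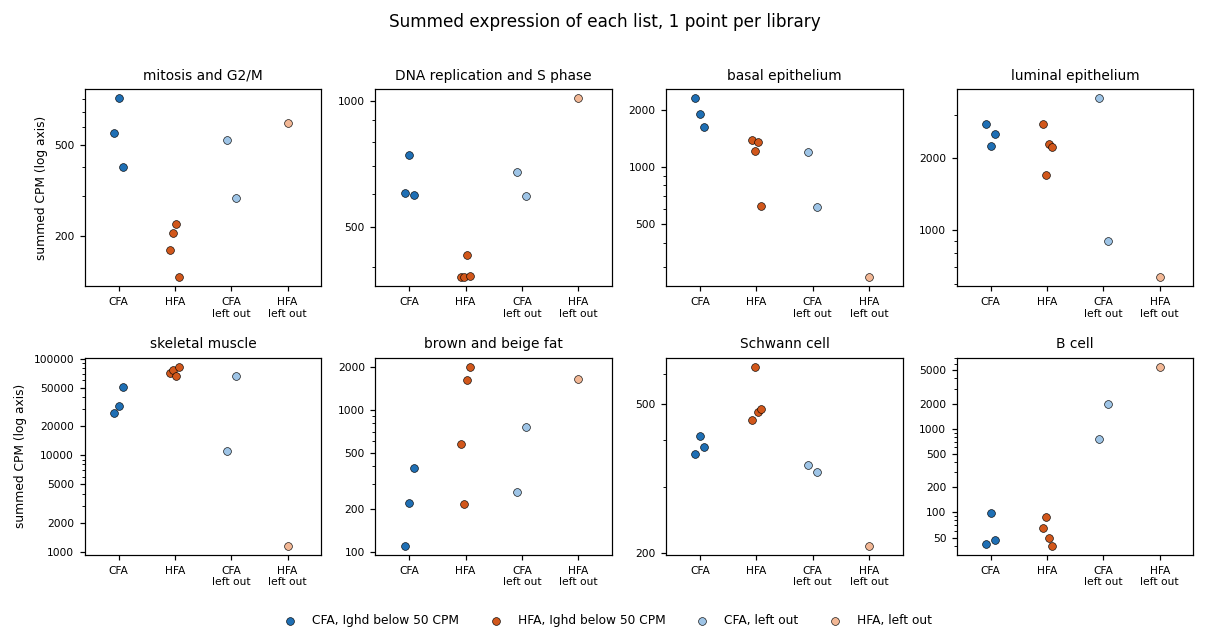
Summed CPM of 8 gene lists on log axes, 1 point per library, for the retained CFA and HFA libraries and for the libraries left out, the latter scaled in a common fit of all 10. In the retained libraries mitotic sums are 401 to 807 CPM in CFA and 131 to 225 CPM in HFA and muscle sums 27200 to 51000 against 65700 to 82700 CPM, whereas luminal, brown fat and B cell sums overlap.

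Epithelial genes were lower in part. All 10 basal (myoepithelial) markers had a lower level in HFA (median log2 fold change -0.90), and the basal keratin genes *Krt5* and *Krt14* and the basal transcription factor gene *Trp63* passed the test. The median of the list was -0.085 with the muscle covariate, and *Krt5*, *Krt14* and *Trp63* had log2 fold changes of -0.51, -0.02 and 0.03 (unadjusted p = 0.208, 0.96 and 0.924). *Krt14* was at 145, 112 and 80.5 CPM in CFA and at 66.8, 51.9, 60.8 and 41.6 CPM in HFA, without overlap (log2 fold change -1.03 ± 0.22, adjusted p = 0.047). *Krt5* was at 206, 162 and 137 CPM against 85.4, 73.6, 98.6 and 71.8 CPM (adjusted p = 0.0428). Markers of luminal cells did not move together, with 8 higher and 9 lower among the 17 tested. The adhesion genes *Epcam* and *Cdh1* and the tight junction gene *Cldn7* fell, to means 1.78-fold, 1.86-fold and 2.03-fold lower. None of them was among the 33 calls that kept an unadjusted p below 0.05 in the quasi-likelihood fit with the muscle covariate. Hormone receptor genes did not pass, with *Esr1* at 103 ± 24.6 CPM in CFA and 107 ± 31.3 CPM in HFA. The progesterone receptor gene *Pgr* was at 34.2, 16.8 and 21.8 CPM against 135, 62.5, 13.8 and 56.1 CPM, with overlap (log2 fold change 1.46 ± 0.61, adjusted p = 0.189). *Id4*, a transcription regulator of basal progenitors, fell from 28.6, 50.7 and 32 CPM to 10.2, 9.23, 12.2 and 6.15 CPM (adjusted p = 0.0422).

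A further 7 genes, chosen after their values were seen, are given with their fit on the muscle covariate. *Hepacam2*, the gene of an immunoglobulin-like adhesion protein, was at 10.2, 10.6 and 14.2 CPM in CFA and at 2.46, 2.99, 2.21 and 2.43 CPM in HFA. Its log2 fold change of -2.20 ± 0.20 (adjusted p = 0.0176) was -2.77 with the muscle covariate, with an unadjusted p of 0.000124. *Clca3a2*, a chloride channel accessory gene, was at 259, 302 and 193 CPM against 83.9, 57.5, 64.0 and 79.8 CPM (log2 fold change -1.82 ± 0.19, adjusted p = 0.0285). *Fcgbp*, which encodes a mucus-associated protein, was at 1250, 1150 and 1000 CPM against 459, 320, 464 and 392 CPM (adjusted p = 0.04). The mucin genes *Muc1*, *Muc15* and *Muc20* fell by 1.09, 1.65 and 1.28 on the log2 scale, and the whey acidic protein family gene *Wfdc18* by 2.03. These 4 had, with that covariate, log2 fold changes of -0.44, -0.22, -0.17 and -0.61, with unadjusted p-values from 0.362 to 0.723, and *Clca3a2* and *Fcgbp* had -0.95 and -1.03 (unadjusted p = 0.0161 and 0.026).

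Some of the largest falls by size were of genes that varied widely within CFA. *Msln*, the mesothelial surface gene, was at 18.5, 24.0 and 1.26 CPM in CFA and at 0.321, 0.416, 0 and 0.26 CPM in HFA (log2 fold change -5.70 ± 1.01, adjusted p = 0.0428). The library T1324 was closer to the HFA libraries than to the other CFA libraries for *Msln*, and likewise for *Calca*, a calcitonin gene known as a progesterone target, at 112, 95.3 and 11 CPM against 4.18, 2.91, 8.57 and 2.43 CPM. The fibrillin gene *Fbn2* also had T1324 lowest in CFA, with 44.0, 53.1 and 9.43 CPM against at most 4.42 CPM in HFA. With the muscle covariate the log2 fold changes of *Msln* and *Calca* turned to 0.58 and 0.55, with unadjusted p-values of 0.632 and 0.675. The ferric reductase gene *Cybrd1* fell by 3.32 on the log2 scale and the lipoxygenase gene *Alox12e* by 2.92, with values of -0.72 and -1.11 under that covariate. *Kcnk16*, a potassium channel gene, had 28, 29 and 27 reads in the CFA libraries and 1, 2, 0 and 2 reads in the HFA libraries, which is the tightest contrast at a low level. The surfactant protein gene *Sftpd* was similarly low, at 2.78 ± 0.805 CPM in CFA and 0.326 ± 0.332 CPM in HFA.

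*Gadd45g* (chr13:51846678-51848468), a growth arrest gene whose protein family takes part in stress signalling and in DNA demethylation, had the smallest p of all genes. It was at 12.9, 9.16 and 10.3 CPM in CFA and at 43.5, 37.3, 39.0 and 36.5 CPM in HFA. The mean rose 3.61-fold, from 10.8 ± 1.92 CPM (SD, n = 3) to 39.1 ± 3.14 CPM (SD, n = 4), with an adjusted p of 0.0118. The log2 fold change was 1.85 ± 0.15, between 1.75 and 2 without any one library and 2.03 with the muscle covariate (unadjusted p = 0.000675). The CDK inhibitor gene *Cdkn1a*, which halts the cell cycle, was at 13.8, 18.4 and 20 CPM against 32.6, 44.9, 35.7 and 31.3 CPM. It rose 2.07-fold (adjusted p = 0.0428), a log2 fold change of 1.05 ± 0.18. With the muscle covariate *Cdkn1a* had 0.64 (unadjusted p = 0.158 in that quasi-likelihood fit). It was the one gene of 22 tested p53 targets and CDK inhibitors that passed the quasi-likelihood test (4.55%, against 2.98% of all genes). The likelihood ratio test called 2 of the 22 and DESeq2 called 3.

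**Figure D3:**
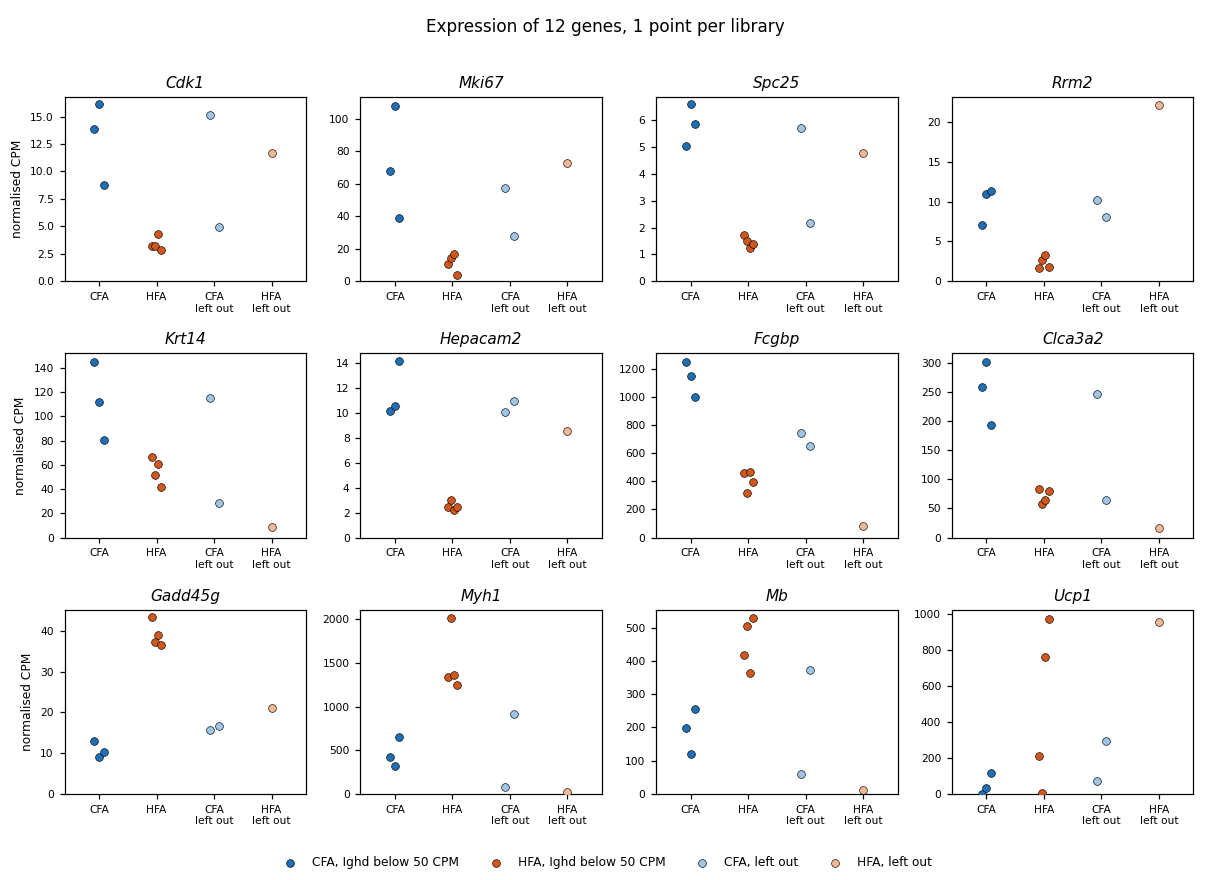
Normalised CPM of 12 genes, 1 point per library, for retained CFA and HFA libraries and for those left out, which were scaled in a common fit of all 10. *Gadd45g* stands at 36.5 to 43.5 CPM in the 4 retained HFA libraries and at 9.16 to 12.9 CPM in CFA, whereas the division genes *Cdk1*, *Mki67*, *Spc25* and *Rrm2* show the opposite order, and *Ucp1* overlaps between the diets.

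Skeletal muscle markers were higher throughout. All 18 that were tested had a higher level in HFA, 16 had an unadjusted p below 0.05, and the median log2 fold change was 0.99. The fast myosin gene *Myh1* was at 423, 322 and 657 CPM against 1340, 2010, 1360 and 1250 CPM (log2 fold change 1.67 ± 0.29, adjusted p = 0.0428), and the myoglobin gene *Mb* at 197, 119 and 257 CPM against 417, 507, 365 and 529 CPM (adjusted p = 0.0468). These 2 of the muscle markers passed by the quasi-likelihood test (11.1%, against 2.98% of all genes) and 15 by DESeq2. The abundant *Acta1* and *Ckm*, for muscle actin and creatine kinase, had log2 fold changes of 1.12 ± 0.33 and 0.99 ± 0.28 (adjusted p = 0.0931 and 0.0797). The acetylcholinesterase gene *Ache*, expressed at the neuromuscular junction, rose from 7.07 ± 1.39 to 19.3 ± 2.25 CPM (adjusted p = 0.04). Nuclear genes of the respiratory chain were higher in 74 of 75 cases, with a median log2 fold change of 0.51. None passed the adjusted threshold by the quasi-likelihood test, against 39 at an unadjusted p below 0.05, 5 past it by the likelihood ratio test, 9 by DESeq2 and 1 by limma voom. The median was 0.001 with the muscle covariate. *Uqcrc1*, a core subunit of complex III, was at 193, 235 and 299 CPM against 381, 326, 427 and 616 CPM (adjusted p = 0.0867).

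Brown and beige fat markers were higher in all 10 tested genes (median log2 fold change 1.47). None passed, with 5 at an unadjusted p below 0.05 and 2 past the threshold by DESeq2 and by the likelihood ratio test. *Ucp1*, the uncoupling protein gene of thermogenic fat, was at 1.46, 33.8 and 117 CPM in CFA and at 211, 5.16, 765 and 977 CPM in HFA. T2224 stood with the CFA libraries, and the adjusted p was 0.25. White adipocyte markers had a median log2 fold change of 0.29 with none past the threshold and 1 at an unadjusted p below 0.05. Of 12 Schwann cell markers, the myelin genes *Prx* and *Mag* were among those that rose and *Sox10*, a transcription factor gene of Schwann and mammary epithelial cells, fell. *Prx*, which encodes periaxin of the myelin sheath, was at 12.9 ± 1.63 CPM in CFA and at 26.9, 39.8, 23.5 and 26.1 CPM in HFA, without overlap, a 2.25-fold rise (adjusted p = 0.0428). The list had a median log2 fold change of 0.33 with the muscle covariate. *Sox10* was at 121, 76.1 and 69.6 CPM against 52.0, 49.6, 46.3 and 39.8 CPM (adjusted p = 0.0469), lower in HFA as the basal keratins were. Red cell RNA was also higher, with *Hba-a1* at 17.3, 18.7 and 14.9 CPM against 31.5, 28.2, 43.3 and 29.0 CPM (adjusted p = 0.0428) and *Hbb-bs* at 61.6 ± 14 against 109 ± 17.1 CPM. Globin genes have near-identical copies, so counts of single genes are uncertain.

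A few genes rose by a large factor with a wide spread in HFA. The iodide transporter gene *Slc5a5*, which the gland uses to pump iodide into milk, was at 12.5, 6.90 and 20.3 CPM in CFA and at 283, 80.3, 36.9 and 126 CPM in HFA (log2 fold change 3.32 ± 0.69, adjusted p = 0.046). *Nrxn3*, a synaptic adhesion gene, was at 1.59, 0.941 and 1.89 CPM against 38.8, 14.5, 2.35 and 24.6 CPM (adjusted p = 0.047), and *Cxcl15*, a chemokine gene, at 14.4, 14.3 and 20.5 CPM against 101, 40.5, 33.3 and 51.1 CPM (adjusted p = 0.0468). In each of the 3 genes T2214 was the highest and T2234 the lowest of the HFA libraries. *Pgr* had T2214 highest and T2234 lowest as well. Other genes with the highest fold changes among those that passed were *Cadm2*, *Cnksr2*, *Nfasc*, *Cldn19*, *Klhl34*, *Agbl1*, *Avil* and *Shisa3*, whose log2 fold changes were between 1.78 and 2.06, and the predicted genes *Gm43085* (2.68) and *Gm15943* (2.24).

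**Figure D4:**
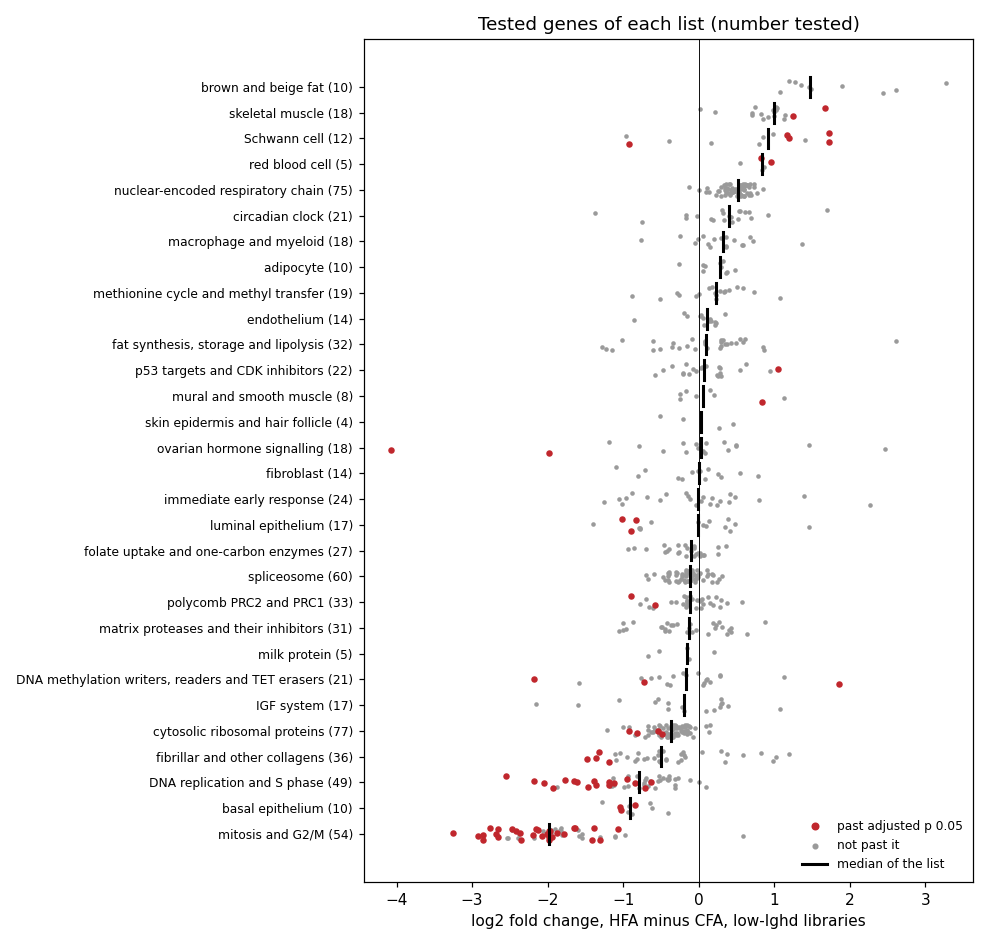
Log2 fold change of HFA over CFA (x axis) of each tested gene in 30 lists, the 4 lymphoid lists left out (y axis, ordered by median, number tested in parentheses), with genes past the adjusted p of 0.05 in red and the median as a black bar. The mitosis, basal and S phase lists have the lowest medians of those plotted (-1.98, -0.90 and -0.80) and the brown fat and muscle lists the highest (1.47 and 0.99).

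Genes of folate metabolism itself differed little. Of 27 genes of folate uptake and one-carbon metabolism tested, 20 were lower and 7 higher, the median log2 fold change was -0.11, and none passed the quasi-likelihood test. At an unadjusted p below 0.05 there were 3, and 2 fell by DESeq2 and by the likelihood ratio test. *Tyms*, thymidylate synthase, which is also an S phase gene, was at 8.47, 9.97 and 8.59 CPM in CFA and at 3.96, 4.91, 6.64 and 3.55 CPM in HFA, without overlap (adjusted p = 0.0649). The mitochondrial enzyme genes *Aldh1l2* and *Mthfd2* had log2 fold changes of -0.86 and -0.70 (adjusted p = 0.0901 and 0.18). The folate carrier gene *Slc19a1* was at 20.6 ± 3.62 against 19.7 ± 3.40 CPM, a difference within the spread. In the methionine cycle, 14 of 19 genes were higher and none passed, with 4 at an unadjusted p below 0.05 and 1 past the threshold by DESeq2 and by the likelihood ratio test. *Ahcy*, which clears S-adenosylhomocysteine, had a log2 fold change of -0.52 (adjusted p = 0.124) and the spermine synthase gene *Sms* one of 0.59 (0.176).

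Among 21 genes that write, read or remove DNA methylation, 1 rose and 2 fell (14.3%, against 2.98% of all genes tested). Besides *Gadd45g*, these were the maintenance methyltransferase gene *Dnmt1*, at 61.4, 76.6 and 60.5 CPM against 40.4, 41.3, 48.0 and 30.9 CPM (log2 fold change -0.72 ± 0.16, adjusted p = 0.0485), and *Uhrf1*, which guides it to replicated DNA, at 11.4, 18.2 and 10.6 CPM against 2.14, 2.99, 5.67 and 1.39 CPM (adjusted p = 0.0428). Both are known to be expressed with replication, and *Uhrf1* is in the S phase list too. *Dnmt1* and *Uhrf1* had log2 fold changes of -0.41 and -1.62 in the quasi-likelihood fit with the muscle covariate (unadjusted p = 0.294 and 0.129). The de novo methyltransferase gene *Dnmt3a* was at 66.9 ± 1.75 against 66.2 ± 10.4 CPM, and *Tet2* at 27.5 ± 4.03 against 28.8 ± 2.16 CPM. Of 33 polycomb genes *Cbx2* and *Cbx6*, which encode chromatin readers of PRC1, fell by 0.90 and 0.58 on the log2 scale (adjusted p = 0.0438 and 0.0461). These 2 calls were 6.06% of the list, against 2.98% of all genes tested. In the quasi-likelihood fit with the muscle covariate their log2 fold changes were -0.49 and -0.54 (unadjusted p = 0.281 and 0.106). *Ezh2*, the methyltransferase of PRC2, was at 16.5, 20.3 and 15.3 CPM against 9.64, 9.65, 14.1 and 12.6 CPM, without overlap but with an adjusted p of 0.0985. *Suz12*, *Bmi1* and *Jarid2* had log2 fold changes of -0.09, 0.05 and -0.03. *Dnm1*, *Gabra3*, *Cd209g*, *Bbc3*, *Snhg12*, *Rpl22l1*, *Mmp2* and *Mmp3* had log2 fold changes of 0.21, 0.25, 0.72, -0.21, -0.35, -0.49, -0.15 and -0.96, and the lowest of their adjusted p-values was 0.317.

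Ribosomal protein genes were lower in 74 of 77 cases (median log2 fold change -0.37), and 4 fell (5.19%, against 2.98% of all genes called). *Rpl21*, *Rpl26* and *Rpl27a* were among them, with log2 fold changes of -0.81, -0.49 and -0.54, and such genes have processed pseudogenes that could take or lose reads. Their summed list level was 5800 to 6850 CPM in CFA and 4750 to 5390 CPM in HFA. Of 36 collagen genes 27 were lower and 4 fell (11.1%, against 2.98% of all genes). These were *Col16a1*, *Col4a5*, *Col4a6* and *Col9a2*, at 186 ± 50.7 against 74.3 ± 21.8 CPM for *Col16a1*. The median of the list was 0.044 with the muscle covariate, and these 4 genes had log2 fold changes of -0.33, -0.11, 0.001 and -0.10. The abundant fibrillar genes *Col1a1* and *Col3a1* overlapped between the diets, T2224 being above T1324 in both, and T2314 was far below all others, at 89.7 CPM for *Col1a1*. None of 31 genes of matrix proteases and their inhibitors passed (4 at an unadjusted p below 0.05, 0 past the threshold by DESeq2 and 1 by the likelihood ratio test), with *Mmp15* the lowest in p (log2 fold change -0.45, adjusted p = 0.0973).

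The remaining lists had few or no genes past the threshold. Of 21 clock genes 16 were higher with none past it by the quasi-likelihood test, 10 at an unadjusted p below 0.05 and 2 past it by DESeq2, among them *Ciart* (log2 fold change 1.69, adjusted p = 0.0686) and *Cry2* (0.55, 0.0694). Spliceosome genes (60 tested), immediate early genes (24), genes of fat synthesis and lipolysis (32) and genes of the IGF system (17) had none past it, with 16, 7, 5 and 6 at an unadjusted p below 0.05 and 5, 3, 1 and 3 past it by DESeq2. *Myc*, the growth regulator, had a log2 fold change of -1.02 (adjusted p = 0.0716), the orphan receptor gene *Nr4a1* one of 1.40 (0.0842), *Igfbp3* one of -1.60 (0.0726), *Igfbp5* one of -0.58 (0.105), and *Gpam*, the first enzyme of triglyceride synthesis, one of 0.61 (0.0559). Macrophage, endothelial, fibroblast, milk protein and skin lists had no gene past it either, with 1, 2, 0, 2 and 0 at an unadjusted p below 0.05 and 1, 0, 0, 1 and 0 past it by DESeq2. *Abcc9*, listed here as a mural cell marker, rose from 96.2 ± 23.7 to 172 ± 17.5 CPM (adjusted p = 0.0453). It was not among the 33 calls that kept an unadjusted p below 0.05 in the quasi-likelihood fit with the muscle covariate. The part of the muscle level in its rise was not tested. By the quasi-likelihood test *Abcc9* was the only call among 8 mural markers (12.5%, against 2.98% of all genes). Of the list 4 were higher and 4 lower (median log2 fold change 0.06). *Rgs5* had a log2 fold change of -0.03, and *Des* had 1.14 without and 0.05 with the muscle covariate.

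**Figure D5:**
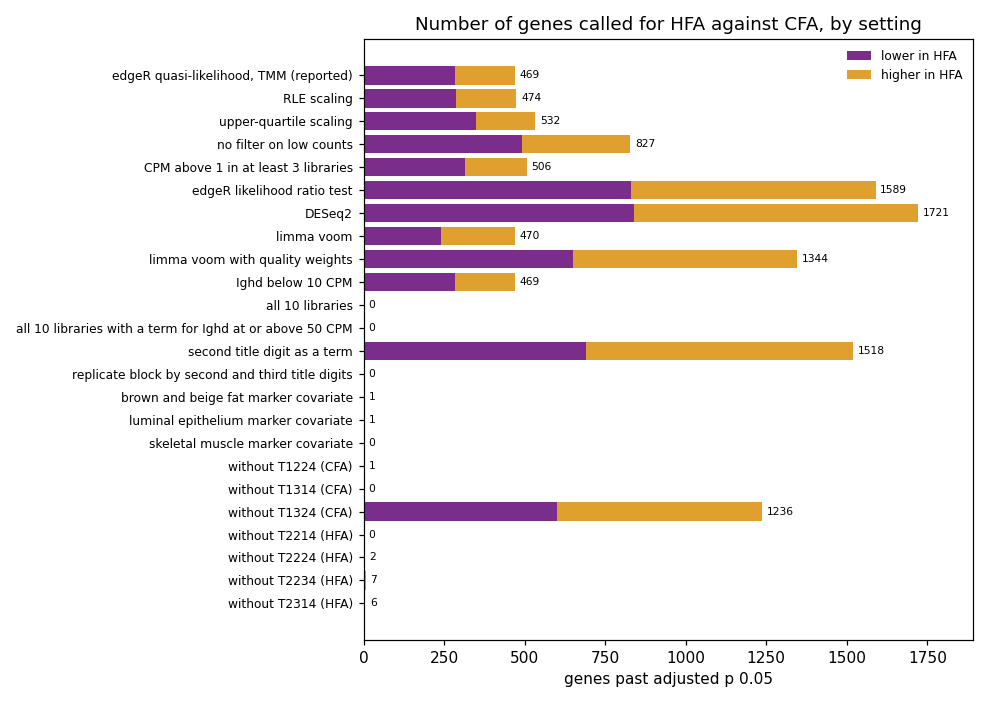
Number of genes past the adjusted p of 0.05 (x axis, bars split into lower and higher in HFA) under each test, scaling, filter, covariate or set of libraries (y axis). The count is 469 as reported, 1721 with DESeq2 and 1589 with the likelihood ratio test, but 0 to 7 in 6 of the 7 fits that leave out 1 library and 0 when all 10 libraries enter.

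The same diets can be compared in the libraries with high *Ighd*, but they are only 2 CFA libraries and 1 HFA library. Since the high-*Ighd* HFA group is the single library T2334, an interaction test compares that library with the rest under the assumption that it varies as the other groups do, and it does not show that the diet effect differs. The edgeR quasi-likelihood interaction over all 10 libraries called 1360 of 15610 genes (8.71%) at an adjusted p below 0.05. It called 10 genes without T1224, 14 without T1314, 25 without T2214 and 710 without T2234. *Cdk1*, for example, was at 11.7 CPM in T2334 against 15.1 and 4.93 CPM in the 2 CFA libraries, and *Gadd45g* at 21 against 15.7 and 16.6 CPM. Over all genes tested, 35.9% were lower in T2334 than in both of these CFA libraries and 42.3% higher. Of the 54 mitotic genes none was lower and 32 were higher, and of the 49 S phase genes 1 was lower and 42 were higher. Of the muscle markers 17 were lower and none higher. T2334 also had the highest B cell sum, 5560 CPM, and the lowest muscle sum, 1140 CPM, and the part of either in this difference was not tested.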

How the data were processed

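RNA from right thoracic mammary glands was sequenced by the authors, who used TopHat 2.0.14 with Bowtie 2.2.5 for alignment against GRCm38 and deposited whole-number HTSeq 0.6.1 counts for 46983 Ensembl genes, without normalization. Reads with more than 1 alignment, 28.8% to 33.9% of the lines counted in the retained libraries, were left out of the counts. Symbols came from GENCODE M21 (46488 genes matched). Libraries with *Ighd* below 50 raw CPM were retained, and HFA was compared with CFA in R 4.3.3 by edgeR 4.0.16 (filterByExpr, TMM, quasi-likelihood test, threshold 0.05), without covariates because cage, a term of the study, is not in the labels. Counts varied between mice of a diet with a common biological coefficient of variation of 0.217. The fit was also run on simulated counts, whose outcome is not reported here and is not used as support. DESeq2 1.42.0 and limma 3.58.1 served as alternatives. Standard errors are of the log2 fold change.

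The libraries, lists and tests were chosen with earlier results of these data known. Genes named were, of those past the threshold, the 15 highest and 15 lowest fold changes with a mean of at least 1 CPM, up to 6 genes past the threshold (else up to 3 by p) of each pathway list, the first and the most abundant gene of each marker list, and genes that the study names. Members of these not past an unadjusted p of 0.05 are mostly given as counts, and further genes were named as examples after their values were seen. The muscle covariate, quality weights and the alternatives for the interaction were added after the data had been seen. Values of libraries left out come from a common scaling of all 10. Some genes of the lists are counted but not reported by name here.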

Additional observations from a re-analysis of the deposited data

Results flagged for a closer look

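In 4 genes 1 HFA library stood apart from the other 3 by Dixon's ratio at the 95% level, which flags about 1 in 20 groups by chance and was computed here for 102 genes. *Cybrd1* was at 2.08 CPM in T2224 against 1.07 to 1.21 CPM in the others, *Anln* at 8.49 CPM in T2314 against 7.88 to 7.93 CPM, *Ahcy* at 6.54 CPM in T2214 against 5.12 to 5.29 CPM, and *Me1*, the malic enzyme gene of fat synthesis, at 286 CPM in T2224 against 784 to 862 CPM. *Me1* overlapped between the diets, at 663, 2820 and 1400 CPM in CFA (adjusted p = 0.183, edgeR). The edgeR interaction between diet and *Ighd* level called 1360 genes, but its high-*Ighd* HFA group is the single library T2334, whose spread is assumed to equal that of the other groups, so it does not show that the diet effect differs.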

How the results depend on the processing

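The 469 calls were shared in full by DESeq2 (1721 genes past the adjusted p of 0.05) and by the likelihood ratio test (1589), and nearly so by RLE scaling (466 shared), upper-quartile scaling (462), no filter on low counts (827 genes, 459 shared), limma voom with quality weights (1344, 466 shared) and a term for the second digit of the sample title (1518, 460 shared). Limma voom without weights called 470 genes, of which 394 were shared. No gene passed with all 10 libraries, with all 10 and a term for high *Ighd*, or with the muscle covariate, and 1 passed with the brown fat and 1 with the luminal covariate. Without any one library in turn the count was 0 to 1236, and that at an unadjusted p below 0.05 was 2188 to 4090. With all 10 libraries 1149 genes had an unadjusted p below 0.05, with the *Ighd* term 1904 and with the muscle covariate 113, and the cause of these drops was not tested. Genes higher in every HFA library numbered 117 and genes lower in every one 38 over all 10 libraries, and 1778 to 2860 and 2019 to 3125 without any one library, where fewer libraries have to be separated. The interaction of diet and *Ighd* level was called at 2197 genes by the likelihood ratio test and at 10 to 1653 without any one library, and the library T2334 could not be left out. As to the replicate block, the middle digits of the title are shared by 2 pairs of retained libraries, whose deviations from the diet means correlated at 0.168 and -0.152 over genes, and the labels do not say what the digits mark. With that replicate block no gene passed the quasi-likelihood test, and 2797 had an unadjusted p below 0.05. Depth limits genes of a few reads, such as *Kcnk16* and *Depdc1a* in HFA.

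Each marker covariate was the mean level of its own list, so the median of that list under it was largely set by construction. Median log2 fold changes of lists moved by more than the spread between replicates as follows. With the muscle covariate they were -0.75 for mitosis, -0.52 for S phase, 0.044 for collagens, -0.005 for folate, -0.16 for methionine, 0.19 for DNA methylation, -0.03 for polycomb, 0.001 for respiratory chain, -0.10 for ribosomal proteins, 0.10 for spliceosome, 0.007 for clock, 0.36 for immediate early, -0.17 for adipocyte, -0.085 for basal, -0.33 for milk protein, 0.10 for skeletal muscle, 0.33 for Schwann cell, 1.27 for red blood cell and 0.51 for skin. With all 10 libraries they were -1.10 for mitosis, -0.36 for S phase, 0.043 for DNA methylation, 0.062 for polycomb, -0.16 for ribosomal proteins, -0.034 for spliceosome, 0.22 for p53 targets and 0.68 for skeletal muscle. With the *Ighd* term they were -1.22 for mitosis, -0.36 for S phase, 0.079 for methionine, 0.02 for DNA methylation, 0.037 for polycomb, -0.094 for ribosomal proteins, 0.02 for spliceosome, 0.18 for clock, 0.19 for p53 targets, -0.34 for ovarian hormone, 0.084 for adipocyte, -0.45 for luminal, -0.39 for milk protein, 0.14 for skeletal muscle, 0.62 for Schwann cell and -0.54 for skin. With the second title digit they were -0.18 for folate, -0.034 for polycomb, 0.14 for p53 targets and -0.23 for luminal. With the replicate block they were -0.23 for folate, -0.49 for ribosomal proteins, -0.21 for spliceosome, -0.33 for luminal, -1.32 for basal, 1.39 for skeletal muscle, 0.016 for endothelium, 1.30 for Schwann cell and -0.59 for skin. With the brown fat covariate they were -0.18 for folate, -0.026 for DNA methylation, 0.22 for clock, 0.066 for adipocyte, -0.17 for brown fat, -0.33 for luminal and -0.39 for milk protein. With the luminal covariate they were -0.035 for polycomb, 0.23 for luminal, -0.009 for milk protein and 0.55 for Schwann cell. Without any one library they ranged from -0.19 to -0.11 for folate, -0.14 to -0.049 for polycomb, 0.26 to 0.47 for clock, 0.059 to 0.16 for p53 targets, -0.24 to 0.03 for luminal, -0.73 to -0.078 for milk protein, 0.82 to 1.26 for skeletal muscle, 0.037 to 0.12 for endothelium and 0.69 to 1.05 for Schwann cell.

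Of 140 genes followed one by one, those below changed sign, besides others such as *Col1a1*, *Col3a1*, *Dnmt3a*, *Esr1*, *Slc19a1* and *Tet2*, which are given as levels without a call. With the muscle covariate the log2 fold changes were *Msln* 0.58, *Calca* 0.55, *Col4a6* 0.001, *Sms* -0.45, *Atp5g1* -0.021, *Hnrnpa1* 0.062, *Npas2* 0.86, *Pappa* 0.28, *Cox8b* -0.042, *Gabra3* -0.10, *Mmp2* 0.008, *Mmp3* 0.028, *Bmi1* -0.10, *Jarid2* 0.17, *Pttg1* -0.13, *Ccnb1* 0.26 and *Trp63* 0.031. With all 10 libraries they were *Serpine2* -0.031, *Mthfd2* 0.15, *Bbc3* 0.13, *Suz12* 0.10 and *Jarid2* 0.11, and with the *Ighd* term *Serpine2* -0.37, *Dnm1* -0.13, *Gabra3* -0.23, *Bbc3* 0.16, *Suz12* 0.16 and *Jarid2* 0.16. The second title digit gave *Dnm1* -0.32, *Gabra3* -0.45, *Bbc3* 0.023 and *Suz12* 0.003, the replicate block *Dnm1* -0.20 and *Gabra3* -0.32, the brown fat covariate *Ucp1* -0.32, *Mmp2* 0.18 and *Bmi1* -0.038, and the luminal covariate *Dnm1* -0.008, *Gabra3* -0.31, *Bmi1* -0.016 and *Jarid2* 0.058. *Ucp1* is itself a brown fat marker, so its value with the brown fat covariate was partly set by construction. Limma voom gave *Gabra3* -0.19 and, with quality weights, *Bmi1* -0.049. Without any one library *Dnm1* ranged from -0.023 to 0.49, *Gabra3* from -0.21 to 0.60, *Mmp2* from -0.50 to 0.14, *Bmi1* from -0.029 to 0.13 and *Jarid2* from -0.089 to 0.032. Of the genes followed that passed the adjusted threshold, only *Msln*, *Calca*, *Col4a6* and *Trp63* are among these, and only with the muscle covariate. Over all 469 calls, 438 kept their sign with that covariate, 461 with all 10 libraries and 464 with the *Ighd* term.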

Other observations

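Of the 469 genes that passed, 33 kept an unadjusted p below 0.05 with the skeletal muscle level as a covariate, and some of these besides the division genes already given are named here, chosen after their values were seen. *Hells*, a chromatin remodeller of replicating cells, and *Brip1*, a helicase of the *Brca1* pathway, had log2 fold changes of -1.82 and -1.86 with that covariate, against -2.30 and -2.30 without it. The genes *Hepacam2*, *Fcgbp* and *Kcnk16* were lower with it as well (-2.77, -1.03 and -3.91), and so was the serine protease gene *Tmprss6* (-3.49). Among those that were higher, *Nrxn3*, *Slc5a5* and *Cxcl15* had 4.44, 3.35 and 2.03, the cytochrome P450 gene *Cyp2f2* 2.22, and the globin genes *Hba-a1* and *Hbb-bs* 1.27 each. Muscle level and diet do not overlap in these libraries, so such a fit can hardly separate them, and none of the 33 passed the adjusted threshold in it. The notch ligand gene *Jag1*, a smaller change, had -0.42 without and -0.56 with the covariate.

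Of the 284 genes that fell, 114 (40.1%) were also lower in T2334 than in both CFA libraries with high *Ighd* and 99 (34.9%) were higher, against 35.9% and 42.3% of all genes tested. Of the 185 genes that rose, 18 (9.73%) were higher there and 130 (70.3%) lower. The 114 falling genes that were lower in T2334 all lay among the 237 falls outside the mitosis and S phase lists (48.1% of those). *Clca3a2* was at 15.6 CPM in T2334 against 246 and 64.8 CPM, and *Fcgbp* at 82.8 against 740 and 648 CPM. These are values of 1 HFA library, in which the muscle marker sum was also lowest. Its epithelial sums were lowest as well. The luminal sum was 636 CPM against 3550 and 902 CPM in these CFA libraries, and the basal sum 263 against 1200 and 614 CPM. The part of these levels in the falls was not tested.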
